A study of Caenorhabditis elegans with 12 samples.

Results

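Gene expression was compared between Caenorhabditis elegans carrying an aggregating and a non-aggregating form of human tau, in 3 matched pairs of RNA sequencing libraries, 6 of the 12 in the series. The aggregating form is the strain BR5270, labelled tau aggregate, and the other is BR5271, labelled anti-tau aggregate. The pairs were formed by background. They were the wild-type background at 22 °C, the wild-type background at 20 °C and the ung-1 mutant background at 22 °C, so that 3 aggregate libraries faced 3 anti-aggregate libraries. Matched libraries without tau on the same backgrounds (N2 wild type at each temperature and the ung-1 mutant) are given beside them. The remaining pair, on the nth-1 background at 20 °C, entered no comparison other than alternatives named as such, because its library labelled anti-aggregate held 12.7 CPM (counts scaled to library size) of nth-1, between 5.01 in the nth-1 aggregate library and 22.96 to 29.9 in the 6 compared libraries. Its values are shown as readings outside the test. All worms were at day 1 of adulthood, and each library came from about 5000 whole worms with 1 library per genotype and temperature.

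Tau binds microtubules in axons, and in human tauopathies it forms insoluble fibres. As is known of these strains, BR5270 carries a repeat-domain fragment of human tau with a lysine deletion that favours fibre formation, and BR5271 carries the same fragment with added proline substitutions that block it. Both are expressed in all neurons from the rab-3 promoter together with a red pharyngeal marker, and each is 1 line with its own transgene insertion, so that a difference between the strains includes whatever else differs between the lines. UNG-1 is the uracil-DNA glycosylase that starts base excision repair of uracil in DNA.

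The 6 libraries held between 15124127 and 21953573 counts, and those without tau up to 35204808. The ung-1 gene lay at 13.5 and 11.6 CPM in the aggregate and anti-aggregate libraries of the ung-1 background and between 37.7 and 62.9 CPM in the 4 tau libraries of wild-type background. Neuronal markers were present throughout, with 10 genes such as rab-3 and unc-31 summing to between 154 and 235.3 CPM in the 6 libraries. Most of each sum came from 1 of them, snb-1. Summed markers of other tissues moved between the strains on the wild-type backgrounds. The 6 body wall muscle markers summed to 2619 and 3069 CPM with aggregate tau, against 1543 and 854 CPM with anti-aggregate tau, at 22 °C and 20 °C. The 8 intestine markers summed to 3757 and 3416 against 6386 and 2434 CPM, and to 7930 against 5272 CPM on ung-1. The genes asp-1 and cpr-1 together made up most of each intestine sum, which shows little of the other intestine markers. The 7 hypodermis markers, of which 3 were at 0 in some library, summed to 1794 and 1709 against 540 and 430 CPM. Most of each of these sums was the collagen gene col-19, at 1712 and 1619 against 458 and 316 CPM. The other hypodermis markers did not all move one way. With aggregate tau, elt-3 and the 3 markers at 0 in some library were higher in both wild-type pairs, and lin-26 was lower in both. The marker che-14 was lower at 22 °C and higher at 20 °C. The 7 germline markers summed to 4506 and 4565 against 5422 and 7195 CPM. On the ung-1 background the muscle, hypodermis and germline sums were 1640 against 1529, 422 against 527 and 5280 against 6234 CPM. In whole worms, more cells of a tissue and more RNA per cell cannot be told apart. With 1 library per combination, p-values rest on how the pairs differ among themselves together with the noise of single libraries.

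Across the 3 pairs, the strains did not differ in any gene past the threshold. edgeR's quasi-likelihood test with background as a block called 0 of 12721 genes (0%) at a Benjamini-Hochberg adjusted p under 0.05, and the smallest adjusted p was 0.514. An unadjusted p under 0.05 was reached by 809 genes where 636 would be reached by chance alone, limma voom called 0 genes, and DESeq2's Wald test called 110 higher and 7 lower with aggregate tau. Leaving out the ung-1 aggregate library gave 524 genes higher and 18 lower, and leaving out the ung-1 anti-aggregate library gave 486 and 16. Leaving out the 22 °C anti-aggregate library gave 38 and 0, and leaving out the 22 °C aggregate library gave 1 and 0.

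The pairs differed in what they showed. Among 8765 genes averaging 5 CPM or more, 1019 (11.6%) were at least 2-fold higher and 221 (2.52%) at least 2-fold lower with aggregate tau in the 22 °C wild-type pair. In the 20 °C wild-type pair these were 1690 (19.3%) and 234 (2.67%), and in the ung-1 pair 146 (1.67%) and 198 (2.26%). Gene by gene, the log2 ratios of the wild-type pairs, which share no library, had a Pearson's r of 0.66 across 8765 genes, and the ung-1 pair had an r of -0.25 and -0.11 with the 22 °C and the 20 °C wild-type pair. By rank the last of these turned, with a Spearman's rho of 0.19 and the same sign in 65.4% of genes for the 20 °C and ung-1 pairs, beside a rho of -0.19 and 52.5% for the 22 °C and ung-1 pairs and 0.59 and 78.7% for the wild-type pairs. These values run across genes, which are not independent replicates. In both wild-type pairs 854 genes were at least 2-fold higher with aggregate tau, and of these 21 (2.46%) were also 2-fold higher and 13.6% were 2-fold lower in the ung-1 pair.

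**Figure D1:**
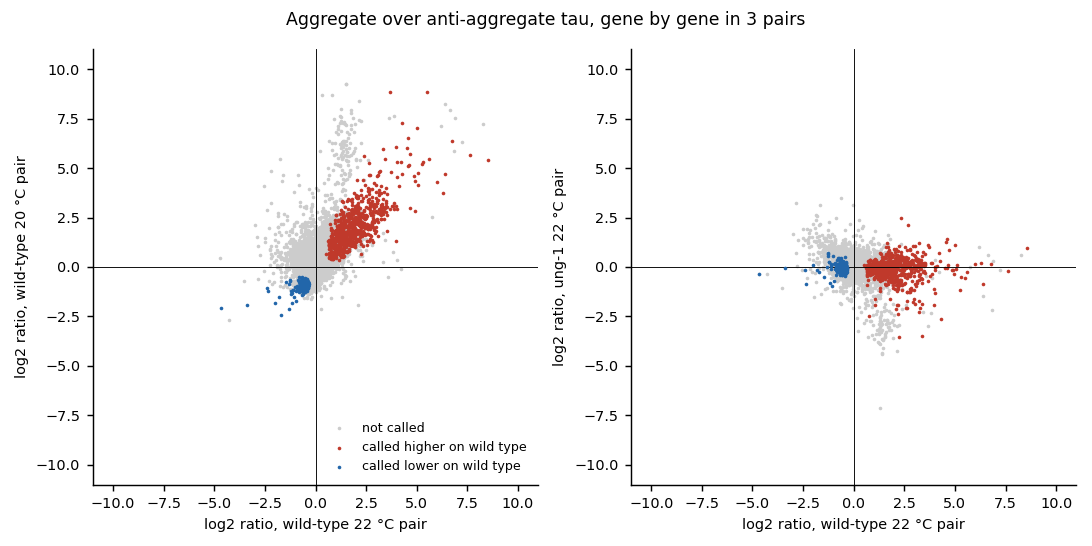
Log2 ratio of aggregate over anti-aggregate tau for each of 8765 genes, with the wild-type 22 °C pair on the x axis and the wild-type 20 °C pair (left) or the ung-1 pair (right) on the y axis, 1 point per gene. Red and blue points were called higher or lower on the wild-type backgrounds; red points lie in the upper right on the left and spread along the zero line on the right, where their median ratio was -0.12.

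In all 3 pairs 21 genes (0.24% of 8765) were at least 2-fold higher and 1 gene (0.0114%), the pseudogene Y54G2A.21, at least 2-fold lower with aggregate tau. Of the 21, 8 carried a gene name: bath-29, lido-14, fbxa-69, btb-16, lin-11, clec-70, fbxa-106 and egas-3. In the nth-1 pair 11 of the 21 were higher in the aggregate library, 6 of them by at least 2-fold, and 10 were lower. The gene lin-11 encodes a LIM homeobox factor of neurons and vulva, and it stood at 8.402, 10.1 and 4.90 CPM with aggregate tau and at 3.54, 2.03 and 2.16 CPM with anti-aggregate tau, in the order 22 °C, 20 °C and ung-1. The F-box gene fbxa-69 stood at 15.3, 10.2 and 6.39 against 4.29, 1.78 and 2.38 CPM. F-box proteins select substrates for ubiquitin ligases. Both genes were picked for a difference of at least 2-fold in each pair, and the ung-1 aggregate library was the lowest aggregate library in both.

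Among the named genes that differed one way in all 3 pairs were members of a cluster of bath genes on chromosome II (build WBcel235). The bath genes encode proteins with MATH and BTB domains, a combination found in substrate adaptors of cullin ubiquitin ligases. The gene bath-29 (II, 3348560 to 3358983, plus strand) stood at 39.0, 32.3 and 29.96 CPM with aggregate tau and at 5.93, 8.48 and 6.71 CPM with anti-aggregate tau. Its 3 anti-aggregate libraries were thus low, and the libraries without tau, at 24.97, 46.4 and 29.4 CPM, lay with the aggregate ones. The difference was a log2 fold change of 2.35 (SE 0.28) with an unadjusted p of 0.000264, which gave an adjusted p of 0.514 in edgeR's quasi-likelihood test over 12721 genes. Over 19 alternatives its adjusted p ran from 6.11e-08 to 0.9998 and passed in 3.

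Upstream of it, the minus-strand neighbours bath-28 and bath-30 went the other way, though not every upstream gene did. The gene bath-28 (II, 3343731 to 3344967) stood at 26.5, 27.9 and 27.8 CPM with aggregate tau and at 55.2, 78.9 and 54.9 CPM with anti-aggregate tau. The gene bath-30 (II, 3345218 to 3346378) stood at 55.5, 45.3 and 61.2 against 109, 147 and 98.6 CPM. For both genes the anti-aggregate libraries were the high ones. The 3 libraries without tau, at 30.6 to 41.9 CPM for bath-28 and 63.4 to 88.4 CPM for bath-30, lay below every anti-aggregate library. Log2 fold changes were -1.09 (SE 0.18) for bath-28 and -1.03 (SE 0.20) for bath-30, each with an adjusted p of 0.514. F14D2.15, which overlaps bath-28 by 84 bases and may share reads with it, stood at 18.04, 16.9 and 22.2 against 40.3, 60.3 and 39.7 CPM. Between bath-30 and bath-29 on the minus strand, F14D2.14 stood at 26.3, 22.1 and 5.44 against 9.56, 13.6 and 7.84 CPM. It was thus higher with aggregate tau in the wild-type pairs and lower in the ung-1 pair.

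On the far side of bath-29 the neighbours differed among themselves. The gene bath-27, which begins 10.6 kb along, had log2 ratios of -0.05, -0.71 and -0.18 in the 3 pairs, and Y49F6C.8, 20.6 kb along, had ratios of -0.40, -0.68 and 0.14. Nearly all of lido-14 overlaps bath-27 on the same strand, and reads from the overlap of 1117 bases may be shared between them. The gene lido-14 stood at 21.3, 13.99 and 3.63 CPM with aggregate tau and 0.80, 0.06 and 1.30 CPM with anti-aggregate tau. Further along, linc-11 stood at 11.01, 2.597 and 0.86 against 1.28, 0.25 and 0.97 CPM, near the lowest levels that can be read. Back on the upstream side, F14D2.8 overlaps the start of bath-29 on the other strand by 1311 bases. It stood at 72.7, 54.7 and 10.9 against 16.5, 20.6 and 14.8 CPM. F14D2.8 was thus higher with aggregate tau in the wild-type pairs and lower in the ung-1 pair. In the nth-1 pair bath-29 ran the other way, with 14.8 CPM in the aggregate library and 33.2 CPM in the library labelled anti-aggregate, while bath-28, at 15.3 against 26.7 CPM, and bath-30, at 32.2 against 65.8 CPM, kept the direction of the other pairs.

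**Figure D2:**
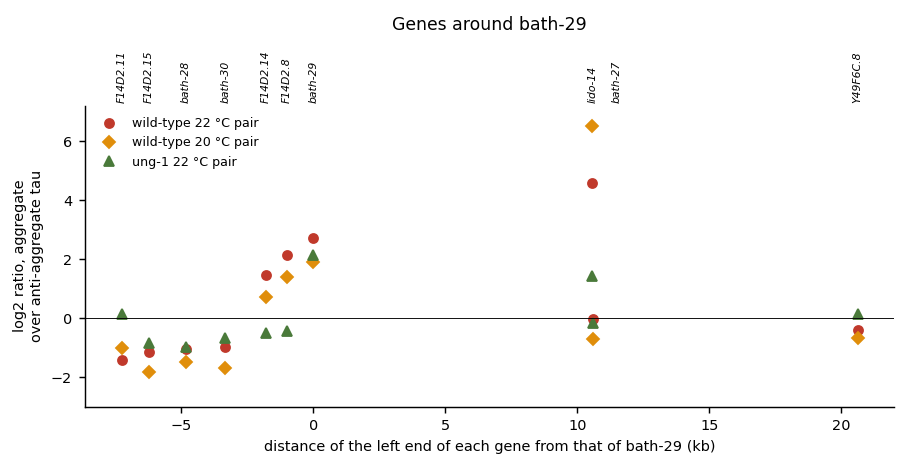
Log2 ratio of aggregate over anti-aggregate tau in each of the 3 pairs (y axis) for 10 genes averaging 5 CPM or more, placed by the distance of their left end from that of bath-29 in kb (x axis). F14D2.15, bath-28 and bath-30 lie below zero in all 3 pairs, and bath-29 lies near 2 or above in all 3 (2.70, 1.92 and 2.1445).

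One gene outside this cluster had the smallest unadjusted p of the 12721 genes tested. R10F2.6 (III, 2937040 to 2944095), a protein-coding gene known only by its clone name and named here after its values were seen, stood at 102.6, 27.7 and 22.4 CPM with aggregate tau and at 20.3, 8.79 and 3.95 CPM with anti-aggregate tau. Each aggregate library was the higher of its pair, with log2 ratios of 2.33, 1.65 and 2.48, and the nth-1 pair had 1.65. The 22 °C anti-aggregate library lay just below the ung-1 aggregate library. The log2 fold change was 2.25 (SE 0.24, unadjusted p 0.000152, adjusted p 0.514). The libraries without tau stood at 21.4, 7.31 and 10.3 CPM, and the nth-1 mutant at 33.1 CPM beside 38.01 CPM with aggregate tau.

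**Figure D3:**
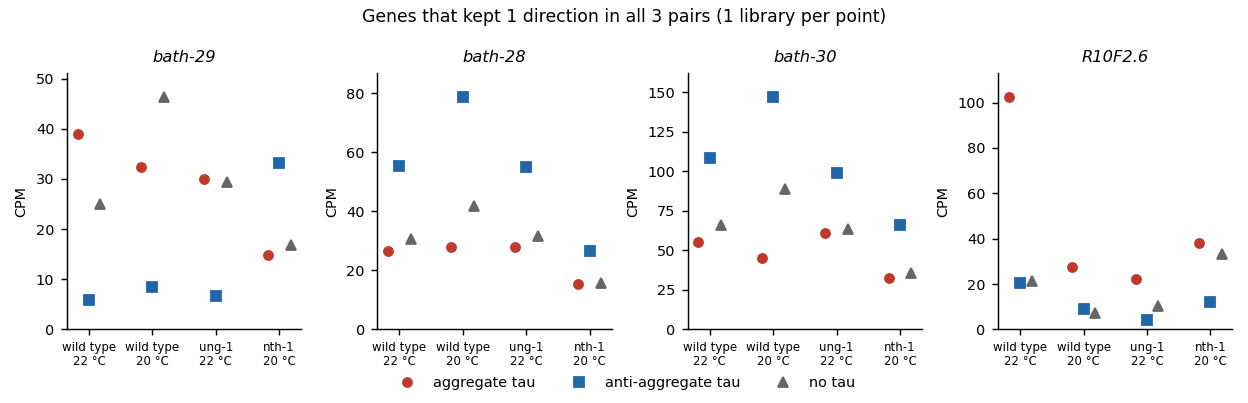
CPM (y axis, from 0) of bath-29, bath-28, bath-30 and R10F2.6 in each of the 12 libraries, grouped by background on the x axis, with 1 point per library and the tau state given by colour and shape. In the first 3 backgrounds the anti-aggregate points are the low ones for bath-29 and the high ones for bath-28 and bath-30, and on nth-1 the bath-29 order is turned, at 14.8 against 33.2 CPM.

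On the wild-type backgrounds alone, the aggregate strain differed from the anti-aggregate strain in many genes. In a fit of the 9 libraries of these 3 backgrounds, with a term that lets the ung-1 background differ, edgeR called 952 of 13293 genes (7.16%) higher and 458 (3.45%) lower with aggregate tau, 2 libraries against 2. The median log2 fold change of all genes was 0.14 with TMM scaling and 0.32 with total counts, a shift against which single values are to be read. Higher calls were 67.5% of all calls with TMM, 56.2% with RLE factors and 96.5% with total counts, where 42 genes were called lower. With DESeq2 the majority turned, with 1547 higher and 2302 lower (40.2% higher). Without the 22 °C aggregate library 213 genes were called higher and 9 lower, and without the 20 °C aggregate library 151 and 5. Without the 22 °C anti-aggregate library the counts were 3445 and 2186, and without the 20 °C anti-aggregate library 841 and 220. Without the ung-1 aggregate library 713 genes were called lower, and without the ung-1 anti-aggregate library 706.

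The wild-type libraries without tau stood on the side of the anti-aggregate strain. Of the 952 genes called higher, 938 (98.5%) had a no-tau level nearer the anti-aggregate level, and 448 of the 458 called lower (97.8%) did. For 948 of the 952, the aggregate library lay above both others in both wild-type backgrounds. On the ung-1 background, 377 of the 952 (39.6%) and 300 of the 458 (65.5%) were on the same side. The median log2 ratio of the 952 genes was 2.11 and 2.27 in the wild-type pairs, which chose them, and -0.12 in the ung-1 pair. In the nth-1 pair, which was not in this fit, it was 1.03. There the library without tau lay with the aggregate one for listed collagen genes, summing to 49720, 53540 and 16110 CPM (no tau, aggregate, labelled anti-aggregate). Listed muscle genes summed to 17930, 18810 and 7018 CPM in the same order. The nth-1 ratio is thus not shown to be a rise over the library without tau.

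Of 10 measured genes of nonsense-mediated decay, 1 was called lower and 1 higher, shares that in so short a list lie close to those of all genes (3.45% and 7.16%). This pathway destroys mRNAs whose reading frame ends too early, and the smg genes encode its machinery, with SMG-2 as the helicase, SMG-3 and SMG-4 as its bridging partners and SMG-1 as the kinase that phosphorylates SMG-2. The gene smg-3 (IV, 6362395 to 6373093) stood at 32.0 and 48.0 CPM with aggregate tau at 22 °C and 20 °C, and at 128 and 172 CPM with anti-aggregate tau. No tau gave 135 and 185 CPM. Both aggregate libraries were thus low, with a log2 fold change of -1.91 (edgeR adjusted p 0.00312, SE 0.15). On the ung-1 background the aggregate library, at 144 CPM, lay beside 135 with anti-aggregate tau and 128 without tau. The gene smg-1 moved up, at 261 and 247 against 114.9 and 155 CPM, a log2 fold change of 0.94 (adjusted p 0.0205, SE 0.14), and on ung-1 it stood at 121 against 120 CPM. The other 8 measured members of the list passed in neither direction, with log2 fold changes from -0.78 to 0.34 and adjusted p from 0.095 to 0.336. The call of smg-3 held under each of the 16 alternatives run, and that of smg-1 was lost without either wild-type aggregate library.

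Genes of polyamine synthesis also differed on the wild-type backgrounds. The gene odc-1 (V, 6898540 to 6900223) encodes ornithine decarboxylase, which starts polyamine synthesis. It stood at 508 and 446 CPM with aggregate tau and 20.7 and 12.4 CPM with anti-aggregate tau, a log2 fold change of 4.89 (adjusted p 0.00243, SE 0.21). The ung-1 pair stood at 18.5 and 19.4 CPM. Next in the same pathway, smd-1, which encodes S-adenosylmethionine decarboxylase, stood at 628 and 548 against 96.3 and 67.1 CPM, and at 97.8 against 94.97 CPM on ung-1. Its log2 fold change was 2.88 (adjusted p 0.00243, SE 0.16). Of 11 measured polyamine genes 4 (36.4%, beside 7.16% of all genes) were called higher and 0 lower. Besides odc-1 and smd-1 these were the spermidine synthase gene spds-1 and hpo-15. The former stood at 28.9 and 28.98 against 13.4 and 10.7 CPM, and the latter at 532 and 407 against 195 and 49.2 CPM. A count of 3 polyamine genes was called without the 22 °C and without the 20 °C aggregate library.

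The gene tos-1, known in worms as a target of regulated splicing, stood at 601 and 665 against 147 and 121.8 CPM, and at 153 against 111 CPM on ung-1. Its log2 fold change was 2.24 (adjusted p 0.00342, SE 0.18). Among ribosomal proteins, 5 of 82 measured genes (6.1%, beside 7.16% of all genes) were called higher and 0 lower while the list's median was -0.34. The 4 with the smallest p were rpl-7A, ubl-1, rpl-30 and rps-22, with log2 fold changes of 1.03, 1.00, 0.95 and 0.91, and none of the 5 calls was made without either wild-type aggregate library. The gene rpl-7A is known in worms for an unproductive splice form that nonsense-mediated decay removes. It stood at 2399.8 and 2769 CPM with aggregate tau and at 1102 and 1459.9 CPM with anti-aggregate tau, while the ung-1 pair stood at 1095 and 1158 CPM. The part of the lower smg-3 level in these differences was not tested.

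The higher calls included pseudogenes. Of 414 pseudogenes tested, 154 (37.2%) were called higher and 0 lower, against 6.13% of 12583 protein-coding genes called higher. They were 3.11% of the genes tested and 154 of the 952 called higher. Summed over the 414, the level was 11170 and 9501 CPM in the wild-type aggregate libraries and between 3466 and 4123 CPM in each of the other 10 libraries, the nth-1 aggregate library included. Examples chosen after their values were seen are Y39B6A.21, at 226 and 223 against 1.99 and 2.58 CPM, and Y73B3A.18, at 499.6 and 484 against 10.2 and 10.997 CPM. In the ung-1 pair they stood at 3.54 against 3.14 CPM and at 8.88 against 10.4 CPM. A pseudogene may share reads with its parent gene.

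**Figure D4:**
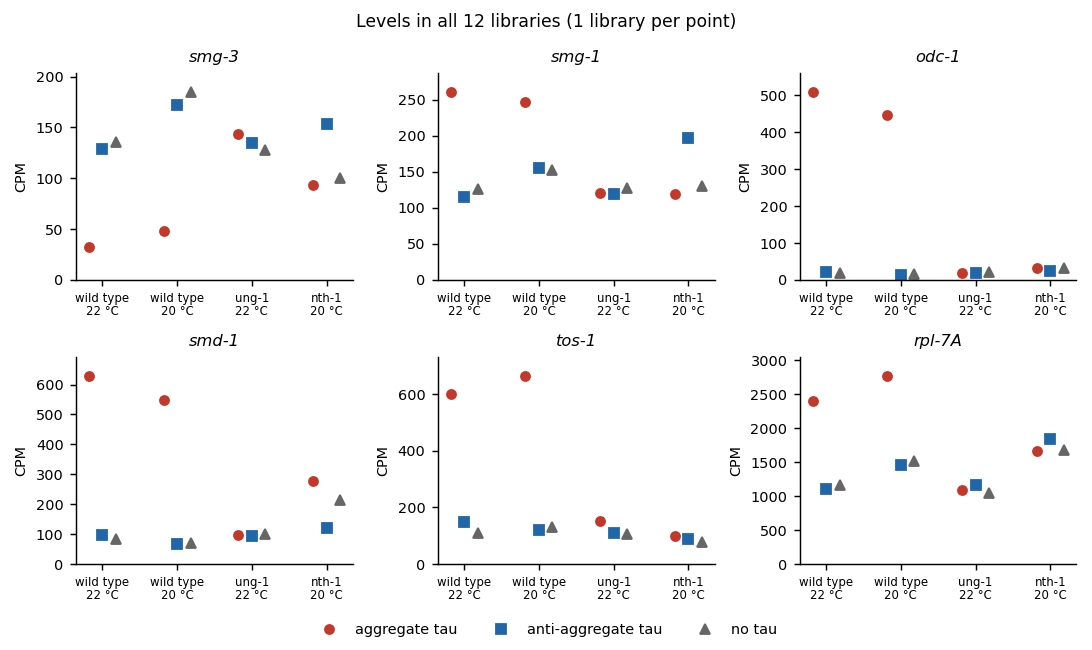
CPM (y axis, from 0) of smg-3, smg-1, odc-1, smd-1, tos-1 and rpl-7A in each of the 12 libraries, grouped by background on the x axis, with 1 point per library. The wild-type aggregate libraries are the lowest of the 12 for smg-3 (32.0 and 48.0 CPM) and the highest of the 12 for the other 5 genes.

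Read over all 12 libraries, the higher genes fell into more than one pattern. In 530 of the 952 (55.7%) both wild-type aggregate libraries were the highest of the 12, against 9.03% of all 13293 genes. In 301 (31.6%) they were at least 2-fold above each of the other 10, against 2.92% of all genes. The wild-type pairs chose these genes, so that the shares describe where the other libraries lay. Among the 154 pseudogenes called higher the shares were 94.8% and 74.7%, against 60.4% and 34.3% of all 414 tested pseudogenes, called or not. Of the 15 muscle genes called higher and the 8 neuropeptide genes called higher 0 had this order, and of the 29 collagen genes 3 had it. The muscle gene unc-22, for instance, stood at 102.9 and 102 CPM in the wild-type aggregate libraries and at 276 and 310 CPM in nth-1 with and without aggregate tau.

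By number, though not by share, cuticle collagens gave the most calls of the gene lists described here. The share called higher was larger among polyamine genes (36.4%) and muscle genes (35.7%). Collagens build the cuticle, and 29 of 98 measured collagen genes (29.6%, beside 7.16% of all genes) were called higher and 0 lower. The list median was 2.47. The median ratio was 1.46 and 3.08 in the wild-type pairs and -0.39 in the ung-1 pair. The gene col-80 stood at 1249.7 and 1392 against 284 and 321 CPM, with a log2 fold change of 2.137 (adjusted p 0.00249, SE 0.14), and at 158 against 369 CPM on ung-1. The gene col-160 overlaps col-159 and stood at 892 and 1225 against 197 and 233 CPM, and at 58.5 against 304 CPM on ung-1. Of 53 moulting and cuticle formation genes 10 (18.9%) rose and 0 fell. Of 18 measured astacin proteases, a family that includes cuticle-processing enzymes, 5 (27.8%) rose and 0 fell. Among the latter nas-21 stood at 32.9 and 38.1 against 0.75 and 0.86 CPM. A count of 9 collagen genes was called without the 22 °C aggregate library, 8 without the 20 °C aggregate library, and without the 22 °C anti-aggregate library 75 more than with it. Without the same 3 libraries in that order, 0, 1 and 29 moulting genes and 3, 1 and 6 astacin genes were called.

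Some muscle genes were also called higher. Of 42 measured genes of body wall and pharyngeal muscle 15 (35.7%, beside 7.16% of all genes) rose and 0 fell, with a median of 1.21. They included unc-52, which encodes the perlecan that anchors muscle to the basement membrane, at 235.3 and 321 against 41.9 and 26.9 CPM, with a log2 fold change of 2.999 (adjusted p 0.00742, SE 0.32). The gene unc-22, which encodes the giant muscle kinase twitchin, stood at 102.9 and 102 against 19.2 and 14.3 CPM. On the ung-1 background unc-52 stood at 39.3 against 72.2 CPM and unc-22 at 18.4 against 24.01 CPM. Of the muscle list 7 genes were called without the 22 °C aggregate library, 2 without the 20 °C aggregate library and 32 without the 22 °C anti-aggregate library. The summed hypodermis markers given above are mostly col-19, itself a collagen, and the body wall muscle markers are muscle genes. They are thus no separate reading of tissue content, whose part was not tested.

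Genes of neurons, where tau is expressed, were called higher at a share near the 7.16% of all genes. Of 88 measured neuropeptide genes 8 (9.09%) rose and 0 fell (median 1.61), and of 50 synaptic and neurotransmitter genes 5 (10%) rose and 1 fell (median 0.90). The gene nlp-20 stood at 13.1 and 14.5 against 1.55 and 2.03 CPM, and on ung-1 at 1.54 against 5.95 CPM. The gene unc-13, which primes synaptic vesicles for release, stood at 17.8 and 24.8 against 5.67 and 4.18 CPM, with a log2 fold change of 2.12 (adjusted p 0.0348, SE 0.41). Glutamic acid decarboxylase, which makes GABA and is encoded by unc-25, stood at 11.2 and 7.73 against 2.61 and 1.04 CPM. The member that fell was tdc-1, the tyrosine decarboxylase of tyramine synthesis, at 170 and 191 against 255 and 430 CPM. Without either wild-type aggregate library 0 neuropeptide and 0 synaptic genes were called, without the 22 °C anti-aggregate library 45 neuropeptide and 20 synaptic genes rose, and without the 20 °C anti-aggregate library 2 of each did. The 10 neuronal markers summed to 235.3 and 205 against 202 and 154 CPM, and their part was not tested. Most of these sums was snb-1, at 154 and 125 against 164 and 130 CPM, so that they show little of the other markers. Of the 10, 2 were called higher and 0 lower.

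In the list of ciliary genes 5 of 28 measured (17.9%, beside 7.16% of all genes) rose and 0 fell. For 4 of the 5 both wild-type aggregate libraries were at least 2-fold above each of the other 10. The gene ift-43, which encodes a component of intraflagellar transport, stood at 198 and 186 against 19.3 and 17.1 CPM, with a log2 fold change of 3.40 (adjusted p 0.00243, SE 0.20). Another intraflagellar transport gene, osm-1, stood at 58.9 and 63.3 against 8.68 and 10.3 CPM, and cng-1, a channel gated by cyclic nucleotides, at 75.3 and 23.3 against 0.80 and 0.80 CPM. On the ung-1 background ift-43 stood at 16.14 against 10.98 CPM, osm-1 at 6.53 against 8.60 and cng-1 at 1.04 against 2.001 CPM. Among F-box, MATH and BATH genes 11 of 166 measured rose and 4 fell, near the shares of all genes. Of this list 3 rose and 2 fell without the 22 °C aggregate library, 4 and 0 without the 20 °C aggregate library, and 32 and 13 without the 22 °C anti-aggregate library. Among these, fbxa-209 stood at 20.1 and 20.4 against 1.15 and 0.80 CPM, and it overlaps Y36E3A.2 on the other strand by 930 bases, whose log2 fold change was 1.95. The gene fbxa-211 stood at 124 and 131 against 8.68 and 15.5 CPM.

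Sperm genes differed widely between the pairs. Of 72 measured 5 (6.94%, beside 7.16% of all genes) rose and 0 fell, and the median ratio was 1.39 in the 22 °C pair, 5.09 in the 20 °C pair and -2.60 in the ung-1 pair. The gene spe-44, a transcription factor gene of the sperm programme, stood at 70.8 and 72.2 against 23.3 and 30.7 CPM, and at 24.98 against 21.6 CPM on ung-1. Without either wild-type aggregate library 0 sperm genes were called, without the 20 °C anti-aggregate library 1, and without the 22 °C anti-aggregate library 71. The 7 summed sperm markers were 104.1 and 119.4 against 36.97 and 32.6 CPM on wild type and 29.1 against 37.6 CPM on ung-1. Most of each of these sums was spe-44 itself, and 4 of the 7 markers were at 0 in some library of these backgrounds. Day 1 hermaphrodites have normally ended sperm production. In nth-1 the same markers summed to 377 CPM without tau, 428 CPM with aggregate tau and 50.4 CPM in the library labelled anti-aggregate. Of these nth-1 sums spe-44 made up 18.7, 21.2 and 23.7 CPM, so that the first 2 came mostly from the other markers.

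**Figure D5:**
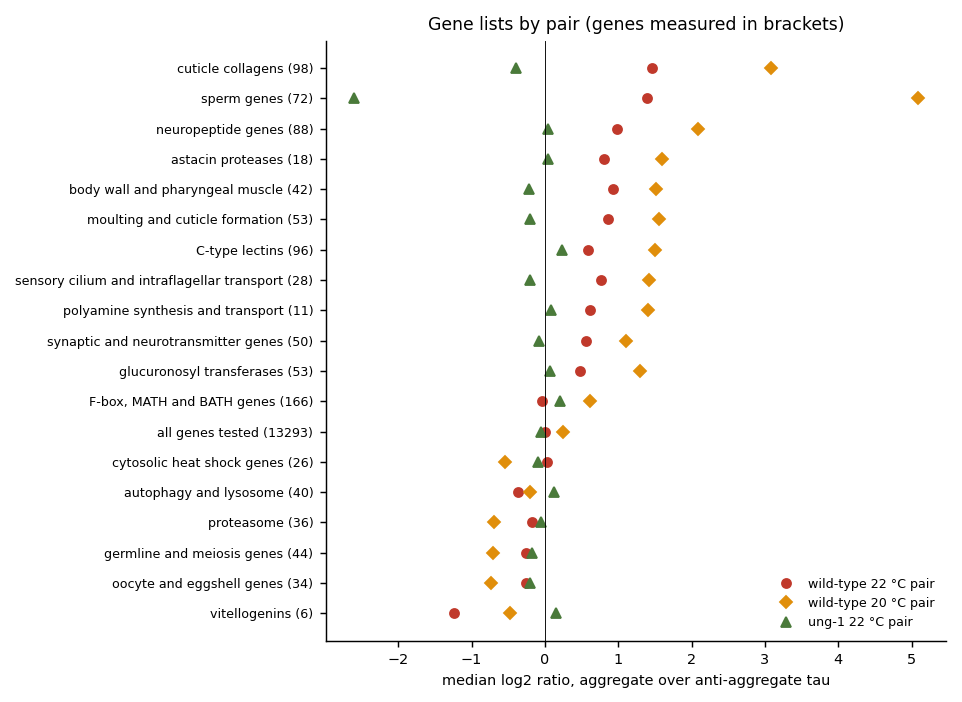
Median log2 ratio of aggregate over anti-aggregate tau (x axis) of 18 gene lists and of all genes tested, in each of the 3 pairs, with the number of genes measured in brackets. The wild-type pairs lie to the right for collagen, sperm, neuropeptide and muscle genes, where the ung-1 pair lies near zero or to the left (-0.39, -2.60, 0.04 and -0.22).

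For epg-5, nra-4, arrd-13 and bath-28, all called lower, the no-tau libraries lay nearer the aggregate than the anti-aggregate libraries on both wild-type backgrounds, on the CPM and the log2 scale. The gene epg-5 encodes a protein needed for autophagosomes to mature. It stood at 22.2 and 20.96 CPM with aggregate tau, at 73.2 and 115.1 CPM with anti-aggregate tau and at 20.8 and 23.1 CPM without tau, with a log2 fold change of -2.09 (adjusted p 0.00688, SE 0.21). On ung-1 it stood at 19.9 against 24.01 CPM, with 63.1 CPM in the ung-1 library without tau. The gene nra-4, whose protein is associated with nicotinic receptors, showed the same order of libraries, at 113 and 128 against 398 and 363 CPM on wild type. On ung-1 it stood at 113 against 127 CPM, with 281 CPM without tau. The gene arrd-13, of the arrestin domain family, stood at 41.2 and 35.0 against 90.9 and 87.4 CPM and at 45.7 against 44.8 CPM on ung-1. The epg-5 gene overlaps vps-33.2 on the other strand by 2244 bases, and the latter's log2 fold change was -0.10.

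Some germline and oocyte genes were called lower, by small amounts. Of 44 measured germline and meiosis genes 6 (13.6%, beside 3.45% of all genes) were called lower and 0 higher (median -0.46). Of 34 oocyte and eggshell genes 6 (17.6%) were called lower and 1 higher (median -0.49). The meiotic axis gene htp-1 stood at 72.6 and 82.1 against 109 and 155 CPM, with a log2 fold change of -0.74 (adjusted p 0.0284, SE 0.13). The eggshell gene egg-3 stood at 160 and 176 against 216 and 369 CPM. With total counts in place of TMM, 0 germline and 0 oocyte genes were called lower, and the medians were -0.28 and -0.31 beside 0.32 for all genes. The same held without either wild-type aggregate library, with 0 lower calls in each list, while 25 germline and 28 oocyte genes were lower without the 22 °C anti-aggregate library and 1 of each without the 20 °C one. The summed germline markers given above were lower in the same libraries, and their part was not tested. They are genes of the same kinds as these lists and no separate reading of tissue content.

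Lists tied to tau and to protein quality are read against the 7.16% of all genes called higher and 3.45% called lower. Of 27 measured genes of the worm tau homologue, tau modifiers and tau kinases, 2 (7.41%) rose and 3 (11.1%) fell. Those that rose, mec-7 and mec-12, encode the tubulins of touch neurons, with log2 fold changes of 3.06 and 2.44. Those that fell were sut-6, smut-1 and spop-1, with -0.70, -0.68 and -0.60, and none of these 3 was called with total counts. Without either wild-type aggregate library, 0 genes of this list were called, and without the 22 °C anti-aggregate library 5 rose and 10 fell. Of 26 measured cytosolic heat shock genes 0 rose and 1 fell (aip-1, log2 fold change -0.64), of 23 endoplasmic reticulum stress genes 0 rose and 1 fell (cup-2, -0.67), and of 40 autophagy and lysosome genes 0 rose and 4 (10%) fell, epg-5 among them. Of 36 proteasome list genes 1 rose and 1 fell. The first was rpn-6.2, at 198 and 180 against 27.1 and 36.3 CPM, and the second ddi-1, at 82.1 and 102 against 137 and 183 CPM. Without the 22 °C aggregate, the 20 °C aggregate and the 22 °C anti-aggregate library in turn, 0, 0 and 25 proteasome genes, 1, 0 and 9 autophagy genes, 0, 0 and 7 heat shock genes and 0, 0 and 2 endoplasmic reticulum stress genes were called lower. In the ung-1 pair rpn-6.2 stood at 28.1 against 25.8 CPM. None of the 6 measured vitellogenins was called, with a median of -0.76.

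The last comparison asked whether the difference between the tau forms depended on the background. The interaction in the same 9-library fit called 1 of 13293 genes (0.00752%) with a more positive difference on ung-1 than on wild type, and 35 (0.263%) with a more negative one. The 1 gene was smg-3, with an interaction of 2.08 (adjusted p 0.047, SE 0.25). The gene odc-1 had an interaction of -4.89 (adjusted p 0.0256, SE 0.34), and 11 of its 14 alternatives passed. Other genes were acdh-2, which encodes an acyl-CoA dehydrogenase, at 547 and 780 against 31.5 and 45.5 CPM on wild type and 20.2 against 19.7 CPM on ung-1, and ketn-1, which encodes the muscle protein kettin. The latter stood at 134 and 174 against 16.3 and 18.4 CPM on wild type and at 17.6 against 32.4 CPM on ung-1. The gene haly-1, which encodes histidine ammonia-lyase, stood at 91.5 and 84.3 against 9.52 and 6.33 CPM and at 17.2 against 21.8 CPM on ung-1. With a single library for each tau state on ung-1, those libraries were fitted exactly, so that the spread came from the 6 wild-type libraries alone and the ung-1 libraries were assumed to vary like them. Without the 22 °C or without the 20 °C wild-type aggregate library the fit called 0 genes in either direction, and without the 22 °C or 20 °C anti-aggregate library it called 248 more positive and 1730 more negative, or 191 and 448. With DESeq2 95 and 366 genes were called.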

How the data were processed

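RNA sequencing libraries of whole worms were compared from the deposited raw counts per gene. The submitters' processing notes name HISAT2, WBcel235 and edgeR 3.22.5 but give no order or role for them. How reads were assigned to genes, with which annotation and strand setting, and the version of HISAT2 were not given in the sources used here, so reads of overlapping or antisense genes cannot be told apart, and 42 of 168 genes named by rule overlap a tested gene. Of 46589 identifiers 46180 matched the Ensembl release 115 annotation, and the unmatched held 0.228% of counts. All 12 libraries' columns were read. The titles of 3 libraries at 20 °C name ung-1 where the genotype field names nth-1, and the genotype field was used.

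Counts were analysed in R 4.3.3 with edgeR 4.0.16 (TMM factors, filterByExpr, glmQLFit and glmQLFTest, Benjamini-Hochberg adjusted p under 0.05). The 3 pairs were fitted with background as a block, which comes from the labelled genotype and temperature. The wild-type contrast and its difference from ung-1 came from 9 libraries including those without tau, with a term for tau state by ung-1. Each fit left 2 residual degrees of freedom. CPM are TMM-normalised over the 12 libraries, and ratios within a pair used a prior count of 2 and genes averaging 5 CPM or more, with no test. limma voom 3.58.1 and DESeq2 1.42.0, other scalings and filters, other sets of libraries, and leaving out each library were the alternatives. Scripts were tested on simulated data.

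Members and lists were chosen with earlier results of these data known. Named genes were those called, averaging 5 CPM or more, not known by a clone name alone and moving one way in each pair, ranked by fold or, where few passed, by p, plus the members of the lists with the smallest p. Genes outside that rule are said to be chosen after their values were seen, or are neighbours of such genes or listed members. Each combination has a single library of pooled worms and no replicate. The p-values thus measure how the tau states differ from background to background or between the temperatures, together with the noise of single libraries. Counts per gene vary among the genes described, and depth limits values near or below 1 CPM, which rest on few reads. Examples are lido-14 at 0.06 CPM and linc-11 at 0.25 CPM with anti-aggregate tau on wild type at 20 °C.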

Additional observations from a re-analysis of the deposited data

Results flagged for a closer look

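The difference between aggregate and anti-aggregate tau was itself called different between the ung-1 and the wild-type backgrounds in 36 genes by edgeR's interaction test. Among the named ones, the log2 difference of ung-1 minus wild type was 2.08 for smg-3, -7.46 for srlf-32, -4.89 for odc-1, -4.60 for col-160, -4.01 for acdh-2, -3.95 for ketn-1 and -3.79 for haly-1. For srlf-32 the levels were 9.95 and 13.7 CPM with aggregate tau against 0.89 and 0.92 CPM on wild type, and 0.27 against 4.002 CPM on ung-1. The levels below 1 CPM rest on few reads. Each of these rests on 1 library per tau form on the ung-1 background.

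In the nth-1 pair, which was used in alternative fits only, bath-29 had a log2 ratio of aggregate over anti-aggregate tau of -1.16, opposite to the other 3 pairs, and R10F2.6 had a ratio of 1.65, in their direction. Neither was tested.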

How the results depend on the processing

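Over the 3 pairs, 0 genes were called each way under TMM, RLE factors, total counts, either filter, limma voom and robust edgeR. The same held without the stage-linked lists, without the background block and in the fits of 9 or 12 libraries. It also held with the nth-1 pair added and in the 22 °C pairs alone. DESeq2 called 110 higher and 7 lower, and leaving out 1 library gave 0 to 524 higher and 0 to 18 lower.

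On the wild-type backgrounds (952 higher, 458 lower), the counts were 1065 and 830 with RLE factors, 1148 and 42 with total counts, 1538 and 691 with no filter, 905 and 68 for genes averaging 5 CPM or more, 1547 and 2302 with DESeq2, 1514 and 944 with limma voom, 1224 and 1039 with robust edgeR, 1018 and 236 without the stage-linked lists, and 414 and 10 from the 6 tau libraries. The 4 wild-type tau libraries with the background block gave 1955 and 52, of which 856 and 35 were among the genes first called. Leaving out 1 library gave 151 to 3445 higher and 5 to 2186 lower. Of 130 named genes, 22 were called under each alternative run.

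For the difference between backgrounds (1 more positive on ung-1, 35 more negative), 71 were more negative with total counts, and the counts were 14 and 250 with no filter, 2 and 162 for genes averaging 5 CPM or more, 95 and 366 with DESeq2, 2 and 72 with robust edgeR, 0 and 31 from the 6 tau libraries, and 0 and 0 with the 22 °C wild-type pair only. Leaving out 1 library gave 0 to 248 and 0 to 1730, and without either ung-1 tau library the difference could not be estimated.

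Genes 2-fold higher or lower in all 3 pairs (21 and 1) numbered 15 and 0 with a prior count of 5, 23 and 0 with total counts, 77 and 2 at a mean of 1 CPM, 8 and 0 at 20 CPM, 98 and 11 at 1.5-fold and 0 and 0 at 4-fold. Leaving out 1 pair, an alternative added after seeing the data, gave 23 to 854 and 5 to 21. No named gene reversed its direction under the alternatives run. Many were named for moving one way in each pair, which left little room for a reversal, so no conclusion is drawn from this. The balance of calls on the wild-type backgrounds turned to lower with DESeq2. The causes were not tested. With 2 residual degrees of freedom and 1 library per combination, the counts of calls move with single libraries, and the pair values carry no replicate error.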

Other observations

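Several gene families outside the groups described also held calls on the wild-type backgrounds. Of 53 measured glucuronosyl transferases, which attach sugars to small molecules, 11 rose and 0 fell with aggregate tau (median log2 fold change 0.83), and of 96 C-type lectins 9 rose and 2 fell (median 1.06), beside 7.16% of all genes called higher and 3.45% lower. Without the 22 °C aggregate, the 20 °C aggregate and the 22 °C anti-aggregate library in turn, 0, 0 and 24 glucuronosyl transferases and 1, 1 and 50 C-type lectins were called higher. Of 53 oxidative stress genes 3 rose and 1 fell (median 0.09; 0, 0 and 7 higher without the same libraries), and of 14 mitochondrially encoded genes 0 rose and 0 fell (median 0.03), beside a median of 0.14 over all genes. Among 38 long intergenic RNA genes tested 5 rose, linc-9 among them, at 55.6 and 57.7 against 6.86 and 8.11 CPM and at 5.89 against 3.79 CPM on ung-1.

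The nth-1 pair, outside the main comparisons, had 1405 genes at least 2-fold higher and 1714 at least 2-fold lower in its aggregate library among 8765. The share of counts on ribosomal RNA genes was 1.03% in that aggregate library, and lay between 0.0824% and 0.817% in the other 11.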
